A study of Homo sapiens with 6 samples.

Results

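IGF2 mRNA and 8 transcripts of the insulin-like growth factor (IGF) axis were followed through a pull-down of the long noncoding RNA CyCoNP (gene symbol LINC02381). The 9 genes, IGF2, H19, IGF1R, IGF2R, IGF2BP1, IGF2BP2, IGF2BP3, IGFBP2 and IGFBP5, were taken by symbol from the 60676 genes of the count table. Of these, 8 were among the 12565 genes that entered the test, which required 10 counts or more over the 6 libraries, and IGF2BP2, with 2 counts in all, did not. The cells were SK-N-BE, a human neuroblastoma line, taken at day 1.5 of differentiation with 10 µM retinoic acid in every group. Native extract was incubated with biotinylated antisense DNA probes, either 22 against CyCoNP (CyCoNP PD) or 5 against the bacterial lacZ sequence (LacZ PD, the control for unspecific capture), and bound RNA was recovered on streptavidin beads. Input is RNA from the extract without probes or beads. Dextran sulfate was added to both kinds of pull-down, which also went through more pooled PCR reactions than input, so these steps cannot be told apart from the capture when a pull-down is compared with input. Each of the 3 groups held 2 libraries, sequenced as full-length cDNA on Nanopore flow cells. The study describes them as biological duplicates.

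IGF2 is a fetal growth factor that signals through the receptor kinase IGF1R, while IGF2R binds it at the cell surface and delivers it to lysosomes. The gene lies beside H19 in an imprinted cluster on chromosome 11, where the maternal copy normally expresses the noncoding RNA H19 and the paternal copy IGF2. The IGFBP proteins bind the ligand outside the cell, whereas the IGF2BP proteins are cytoplasmic RNA-binding proteins named after IGF2 mRNA, one of their targets. IGF2 is known as an autocrine growth factor in neuroblastoma.

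Because the probes recognise RNA by base pairing, the longest stretch of perfect complementarity between a probe and each transcript was searched in the GENCODE v44 transcripts of GRCh38. The best match of IGF2 spanned 11 bases and lay in the coding sequence, in exon 2 of the longest transcript, at chr11:2135395-2135405 on the minus strand. It was present in 9 of the 10 annotated IGF2 transcripts. Probe and site are shown 5′ to 3′ with the paired bases in capitals.
CyCoNP probe 2: ggGAACTGGAGGGagaggtc
IGF2 site: ggtggacaCCCTCCAGTTCgtctgtgg
A stretch at least as long was found in 32.9% of the 12528 tested genes with annotated transcripts, whereas CyCoNP itself matched its probes over 20 bases, which 0.00798% of the genes did. For the LacZ probes the best IGF2 match was 9 bases, as in 43.7% of genes, in the 5′ UTR at chr11:2140948-2140956. H19 also reached 11 bases, with CyCoNP probe 13, at chr11:1996005-1996015 on the minus strand, but only in 2 of its 31 transcripts, and 9 bases in the longest one.
CyCoNP probe 13: aggcATGGGGAAGGAttagg
H19 site: gacctcacTCCTTCCCCATccacagaa
The remaining members matched a CyCoNP probe over 9 or 10 bases, as 92.9% and 70.6% of genes did. A perfect match as long as that of IGF2 was thus found in a large share of genes. Only the longest perfect stretch was scored, without mismatches or the level of the transcript, and capture of IGF2 by the probes themselves was not tested. GAPDH, the negative control of the study, matched over 10 bases.

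The libraries differed widely in depth, from 18870 counts in LacZ PD 1 to 1512148 in CyCoNP PD 1, an 80.1-fold range. A count of 0 therefore allows up to 159 units of normalised read count (CPM, the count as a share of the library total, scaled to 1e6) in LacZ PD 1, taking 3 counts as the limit, but only 1.98 CPM in CyCoNP PD 1. Intervals and limits given here cover counting error only. The 13 neuroblastoma markers summed to between 2794.7 and 4094.9 CPM in all 6 libraries, as the label would have it, whereas 5 Schwann cell markers reached at most 7.77 CPM and 5 liver markers at most 2.53 CPM. The 3 libraries numbered 1 stood apart. Skeletal muscle markers, 20 genes chosen after values were seen, summed to 2011.4 CPM in input 1, 3383.3 in CyCoNP PD 1 and 3921.6 in LacZ PD 1, against 26.5, 46.6 and 50 CPM in the libraries numbered 2. MYOG, a muscle transcription factor, had 666, 1284 and 22 counts in the libraries numbered 1 and 1, 0 and 0 in those numbered 2. The 6 fibroblast or mesenchymal markers summed to 332.0 to 519.6 CPM in number 1 against 28.5 to 79.6 CPM in number 2. This came from the collagen genes COL1A1 (192 and 10 counts in the 2 input libraries), COL1A2 (131 and 2) and COL3A1 (30 and 0), whereas DCN (4 and 3), LUM (8 and 15) and PDGFRB (8 and 8) did not show it. Results below are given for each number separately where the members' data allow it, and the part of these transcripts in the results was not tested. In such bulk libraries, fewer cells of a type, less RNA per cell and RNA from another source cannot be told apart. The labels do not say where the muscle transcripts came from. The pull-down target itself had 20 and 39 counts from input, 11687 and 3507 from CyCoNP PD and 1 and 20 from LacZ PD, with log2 fold changes of 7.59 (SE 0.96, edgeR adjusted p = 0.0137) against input and 6.39 (SE 0.93, adjusted p = 0.0785) against LacZ PD. CPM are shares of a library and do not measure how much RNA was recovered.

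**Figure D1:**
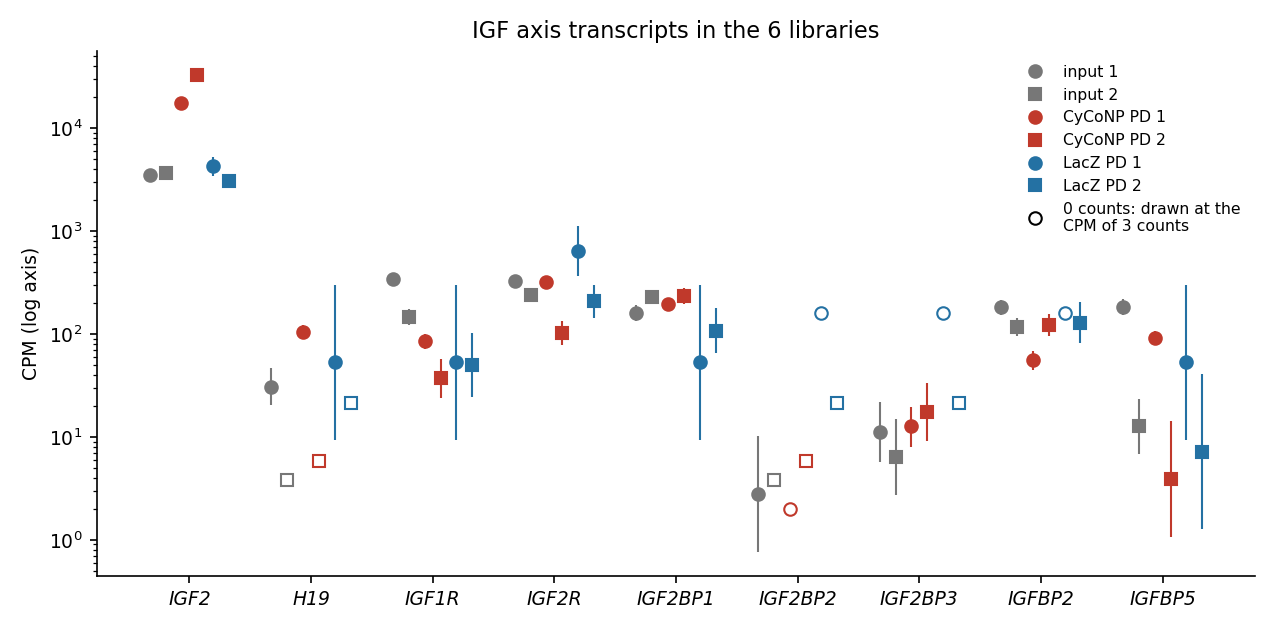
Level of the 9 IGF axis transcripts in each of the 6 libraries, in CPM on a log axis, with 95% Wilson intervals of the counts as bars and 0 counts drawn as open symbols at the CPM of 3 counts. IGF2 lies above the other members in every library and is higher in both CyCoNP PD libraries (17524.7 and 32510.4 CPM) than in the other 4, while H19 has counts only in the libraries numbered 1 (circles).

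IGF2 mRNA was abundant before any capture and more so among the RNAs recovered with CyCoNP. It held 2499 and 2873 counts from input, 26500 and 16739 from CyCoNP PD and 80 and 426 from LacZ PD. Relative to library size this was 3481.0 and 3627.7 CPM for input, 17524.7 and 32510.4 CPM for CyCoNP PD and 4239.5 and 3040.4 CPM for LacZ PD. Both CyCoNP PD libraries were above each of the other 4, whose values overlapped between input and LacZ PD. IGF2 ranked 21st and 34th by counts in input, 4th and 2nd in CyCoNP PD and 10th and 59th in LacZ PD, and it took 0.348% and 0.363% of the input counts against 1.75% and 3.25% of those in CyCoNP PD. An arrangement with both CyCoNP PD libraries above the other 4 was seen for 6.55% of all genes tested.

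On the scale of TMM-normalised CPM, IGF2 averaged 4017.6 ± 483.4 in input, 29263.0 ± 11361.9 in CyCoNP PD and 2786.0 ± 364.6 in LacZ PD (mean ± SD, n = 2 each). The log2 fold change of CyCoNP PD against input was 2.86 (SE 0.80, 95% interval 1.30 to 4.43), larger than that of 97.5% of genes, yet it did not pass the threshold in edgeR's quasi-likelihood test (Benjamini-Hochberg adjusted p = 0.315), in which 0.119% of genes were called enriched and 0.00796% depleted. With the replicate number as a block, the log2 fold change was 2.82 and passed (edgeR adjusted p = 0.0198), in a fit that called 1.53% of genes enriched. DESeq2, the tool of the study's methods, gave 2.81 without the block and an adjusted p of 5.79e-06, with 0.462% of genes called enriched and 0.111% depleted, and 2.75 with the block, where 0.692% were called enriched. The call of IGF2 in CyCoNP PD against input thus rested on the model in these libraries, while the direction did not. The study also measured IGF2 by RT-qPCR in additional pull-down replicates, as one of the targets whose enrichment it reports as verified. Those measurements were not re-examined here.

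Against LacZ PD the log2 fold change of IGF2 was 3.39 (SE 0.82), with an edgeR adjusted p of 0.308. No gene passed this comparison in either direction (0%), although before adjustment a p under 0.05 was reached by 595 genes upward and 58 downward, and DESeq2 called 36 genes enriched (0.287%) and 2 depleted (0.0159%). IGF2 ranked 40th of 12565 genes by p. It was called enriched with the block (log2 fold change 3.35, edgeR adjusted p = 0.00796, 0.724% of genes called) and by DESeq2 (3.25, adjusted p = 6.28e-08), as well as without a count filter (3.50, edgeR adjusted p = 0.028, 0.265% of genes called) and in DESeq2 with the block (3.22, 0.414% called). LacZ PD against input gave a log2 fold change of -0.53 (SE 0.75, 95% interval -2.00 to 0.95, edgeR adjusted p = 0.832), beside a median of -0.68 over all genes, and no gene was called in either direction in that comparison, although 93 genes upward and 789 downward reached p under 0.05 before adjustment, and DESeq2 called 6 enriched (0.0478%) and 53 depleted (0.422%). Scaled by library size alone, the IGF2 value of LacZ PD against input was 0.03.

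IGF2 was higher in CyCoNP PD than in input and LacZ PD within each library number. In those numbered 1, which carry the muscle transcripts, IGF2 was 5.03-fold higher in CyCoNP PD than in input (exact 95% interval 4.83 to 5.25), and in those numbered 2 it was 8.96-fold higher (8.61 to 9.33). Against LacZ PD the ratios were 4.13 (3.32 to 5.21) and 10.7 (9.71 to 11.8). LacZ PD to input gave 1.22 (0.962 to 1.52) and 0.838 (0.755 to 0.928). The spread between the numbers, 5.03 against 8.96, was much wider than the counting error of either ratio. Over 4367 genes with at least 10 counts in all 4 libraries of input and CyCoNP PD, the median log2 ratio was -0.07 in number 1 and 0.06 in number 2. IGF2 ranked 40th and 28th among them, and 16 genes, IGF2 included (0.366%), reached its ratio in both.

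**Figure D2:**
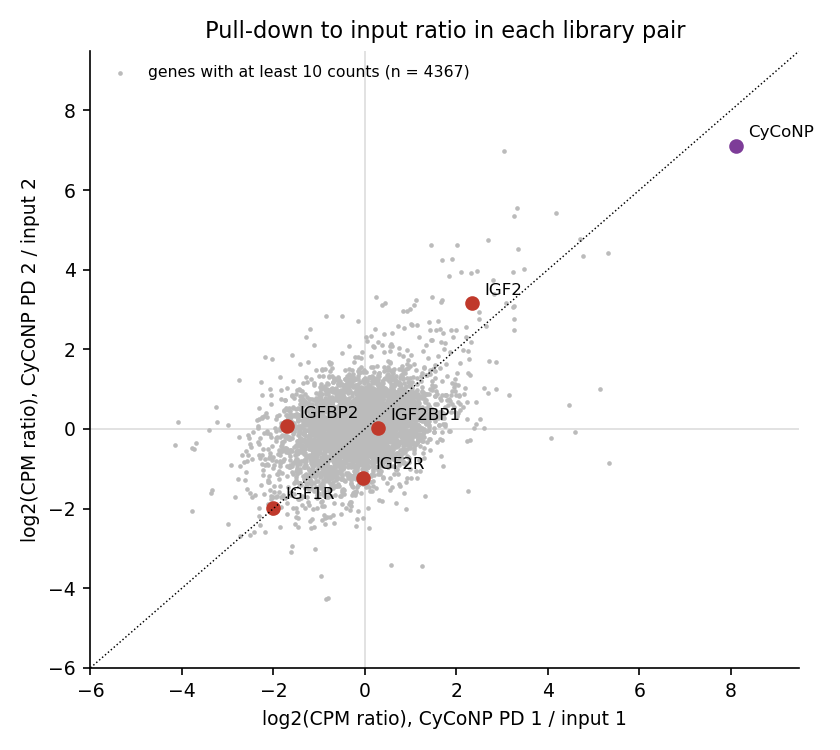
Log2 ratio of CPM in CyCoNP PD to CPM in input, in the libraries numbered 1 (x axis) and numbered 2 (y axis), for 4367 genes with at least 10 counts in each of the 4 libraries (grey), CyCoNP (purple) and the 5 IGF axis members among them (red), with the dotted line marking equal ratios. IGF2, at 2.33 and 3.16, stands beyond most genes in both pairs, IGF1R sits near -2.02 and -1.98, and IGFBP2 is low in number 1 only.

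GAPDH, measured as a check, was higher than input in both kinds of pull-down, with 2023.9 and 3288.0 CPM in input, 5076.2 and 4175.7 with the CyCoNP probes and 7313.2 and 6252.0 with the LacZ probes. Its log2 fold change was 0.85 (SE 0.70) in CyCoNP PD against input and 0.04 (SE 0.70) in CyCoNP PD against LacZ PD, and neither passed the edgeR test (adjusted p of 1 in both).

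H19, the noncoding neighbour of IGF2, was detected only in the libraries that carry the muscle transcripts. Its counts were 22 in input 1, 157 in CyCoNP PD 1 and 1 in LacZ PD 1, and 0 in all 3 libraries numbered 2. Input 1 was 8.09-fold above the limit of 3 counts in input 2, with an exact lower bound of the ratio of 6.04, and CyCoNP PD 1 was 17.8-fold above that of CyCoNP PD 2, with a lower bound of 14.3, whereas 1 count in LacZ PD 1 allows no such statement. For IGF2, the CPM in number 1 was 0.96 times that in number 2 in input (exact 95% interval 0.909 to 1.01), 0.539 times (0.529 to 0.55) in CyCoNP PD and 1.39 times (1.08 to 1.77) in LacZ PD. The coefficient of the library number in the blocked edgeR fit was 8.13 (SE 1.22, adjusted p = 4.19e-09) on the log2 scale for H19 and -0.45 (SE 0.61, adjusted p = 0.847) for IGF2, and this term called 4.46% of all genes higher and 0.812% lower in number 1. The H19 coefficient rests on zeros and is no measured fold. This term takes the 3 libraries of a number as independent, although they deviated together across genes. Its p-values, here and for the genes below, therefore describe these libraries and not a difference between independent replicates.

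The share of IGF2 in the summed IGF2 and H19 counts was 99.13% in input 1 (95% Wilson interval 98.68 to 99.42), 99.41% in CyCoNP PD 1 (99.31 to 99.50) and 98.77% in LacZ PD 1 (93.33 to 99.78). In the libraries numbered 2 every count of the pair was from IGF2, where the 0 counts of H19 allow a share of up to 0.104% in input, 0.0179% in CyCoNP PD and 0.704% in LacZ PD. Per kilobase of the longest transcript, IGF2 exceeded H19 48.8-fold in input 1, 72.5-fold in CyCoNP PD 1 and 34.4-fold in LacZ PD 1. Within number 1, H19 was 3.39-fold higher in CyCoNP PD than in input (exact 95% interval 2.16 to 5.56), below the 5.03-fold of IGF2 but with an interval that reaches it. The fitted log2 fold change of H19 in CyCoNP PD against input was 1.99 (SE 1.40, edgeR adjusted p = 1), and it was 3.26 (SE 2.38, adjusted p = 0.871) against LacZ PD. Without input 1 the value for H19 was 8.05 and passed the test (edgeR adjusted p = 0.0081), since the remaining input library has 0 counts of it, so this call rested on 1 library.

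**Figure D3:**
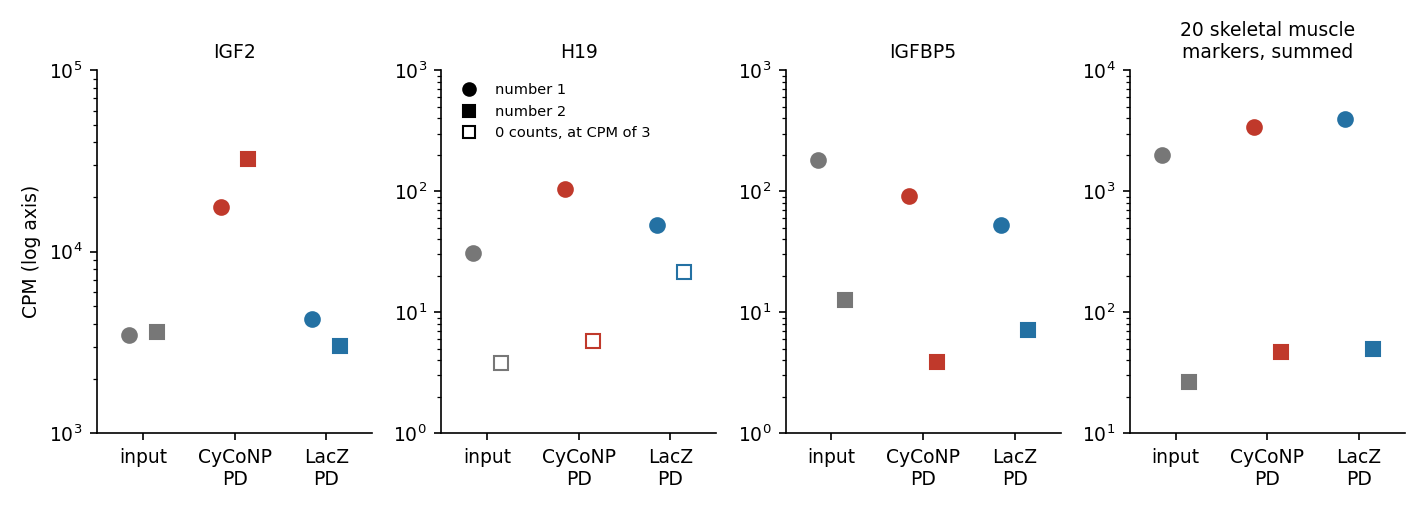
CPM of IGF2, H19 and IGFBP5 and summed CPM of 20 skeletal muscle markers by group, on log axes, with libraries numbered 1 as circles and numbered 2 as squares and 0 counts as open symbols at the CPM of 3 counts. The muscle markers are higher in number 1 in all 3 groups and H19 and IGFBP5 in input and CyCoNP PD, whereas in LacZ PD these 2 genes have at most 1 count a library, and IGF2 in input lies at 3481.0 and 3627.7 CPM.

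Of the receptors, IGF1R had lower values in all 4 pull-down libraries than in both input libraries, and the values of IGF2R overlapped between groups. IGF1R, the signalling receptor kinase, had 246 and 115 counts from input, 128 and 19 from CyCoNP PD and 1 and 7 from LacZ PD. In CPM the values were 342.7 and 145.2, then 84.6 and 36.9, then 53.0 and 50.0, so both input libraries were above all 4 pull-down libraries in measured CPM. Of all genes tested, 20.3% had both CyCoNP PD libraries below both input libraries, and 33.7% had both LacZ PD libraries below them. The value of LacZ PD 1 is 1 count, whose 95% Wilson interval (9.35 to 300.1 CPM) reaches above input 2. Its log2 fold change in CyCoNP PD against input was -1.86 (SE 0.68, 95% interval -3.19 to -0.54) and did not pass the edgeR test (adjusted p = 0.679). With the replicate block it was -1.90 and passed (edgeR adjusted p = 0.0176), where 0.732% of genes were called depleted. DESeq2 with the block also called it depleted (-1.99, adjusted p = 0.0434, 0.279% of genes). The within-number ratios were 0.247 (exact 95% interval 0.198 to 0.307) and 0.254 (0.148 to 0.415), nearly equal although IGF1R differed 2.36-fold between the input libraries. LacZ PD against input gave -2.59 (SE 0.82, edgeR adjusted p = 0.582), from 1 and 7 counts, and CyCoNP PD against LacZ PD 0.72 (SE 0.82, adjusted p = 0.871). The 95% interval of the last difference, -0.88 to 2.32, is wide, and IGF1R was not shown to differ between the CyCoNP and the LacZ probes.

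IGF2R, which clears IGF2, had 236 and 190 counts from input, 485 and 53 from CyCoNP PD and 12 and 29 from LacZ PD. Its CPM were 328.7 and 239.9 for input, 320.7 and 102.9 for CyCoNP PD and 635.9 and 207.0 for LacZ PD, and the groups overlapped in every comparison. The log2 fold changes were -0.32 (SE 0.67), -0.17 (SE 0.71) and -0.15 (SE 0.71) in CyCoNP PD against input, LacZ PD against input and CyCoNP PD against LacZ PD, with edgeR adjusted p of at least 0.955. The 95% interval in CyCoNP PD against input, -1.63 to 1.00, leaves room for a depletion beyond the threshold and for a rise close to it. CyCoNP PD to input gave a ratio of 0.976 (exact 95% interval 0.833 to 1.14) in number 1 and 0.429 (0.31 to 0.585) in number 2, whereas CyCoNP PD to LacZ PD gave 0.504 (0.286 to 0.983) and 0.497 (0.311 to 0.811), both below 1. With the replicate block, the log2 fold change against LacZ PD was -0.32 (SE 0.59, edgeR adjusted p = 0.933).

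Of the 3 IGF2 mRNA-binding proteins, IGF2BP1 was the one expressed at a level that can be followed. IGF2BP1, which binds IGF2 mRNA and stabilises other transcripts such as MYC, had 115 and 181 counts from input, 294 and 119 from CyCoNP PD and 1 and 15 from LacZ PD. The CPM were 160.2 and 228.5, then 194.4 and 231.1, then 53.0 and 107.1, so that input and CyCoNP PD overlapped and both LacZ PD libraries were lower. The log2 fold change in CyCoNP PD against input was 0.17 (SE 0.62, 95% interval -1.05 to 1.40, edgeR adjusted p = 1). Within-number ratios of CyCoNP PD to input were 1.21 (exact 95% interval 0.975 to 1.52) and 1.01 (0.796 to 1.28). The mRNA of this binding protein was close to its input level in the same libraries in which IGF2 mRNA stood 5.03-fold and 8.96-fold above it. Against LacZ PD the value was 1.63 (SE 0.72, edgeR adjusted p = 0.871), and LacZ PD against input gave -1.46 (SE 0.71, adjusted p = 0.718).

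IGF2BP3, its close paralogue, had 8 and 5 counts from input, 19 and 9 from CyCoNP PD and 0 from both LacZ PD libraries. This corresponds to 11.1 and 6.31 CPM in input and 12.6 and 17.5 in CyCoNP PD, and the log2 fold change of 0.83 (SE 0.92) did not pass (edgeR adjusted p = 1). In LacZ PD the 0 counts allow 159 and 21.4 CPM, above its level anywhere else, so no fold against the control was possible. IGF2BP2, the third paralogue, had 2 counts in input 1 and none in the other 5 libraries, at or under the limit everywhere.

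The secreted binding proteins IGFBP2 and IGFBP5 are neighbours on chromosome 2, and they differed in how they followed the library number. IGFBP2 had 130 and 92 counts from input, 84 and 63 from CyCoNP PD and 0 and 18 from LacZ PD, or 181.1 and 116.2, 55.6 and 122.4, and 0 and 128.5 CPM. Its log2 fold changes were -0.68 (SE 0.76), -0.99 (SE 0.84) and 0.30 (SE 0.84) in the 3 comparisons in the order given above, none past the edgeR test (adjusted p of 1, 0.774 and 0.966). CyCoNP PD to input was 0.307 (exact 95% interval 0.23 to 0.407) in number 1 and 1.05 (0.752 to 1.47) in number 2, so the lower mean came from number 1.

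IGFBP5, which binds IGFs in the matrix and is known from muscle and mesenchymal cells, had 131 and 10 counts from input, 138 and 2 from CyCoNP PD and 1 and 1 from LacZ PD. It was 14.5-fold higher in input 1 than in input 2 (exact 95% interval 7.61 to 30.8) and 23.5-fold higher in CyCoNP PD 1 than in CyCoNP PD 2 (6.38 to 195.9, from 2 counts in the latter). The library-number coefficient was 3.81 (SE 0.62, edgeR adjusted p = 1.19e-07) for IGFBP5 and -0.57 (SE 0.48, adjusted p = 0.673) for IGFBP2. In the wider lists, IGFBP6 (13 and 3, 123 and 1, 2 and 0 counts in input, CyCoNP PD and LacZ PD) also passed for this term. So did the imprinted growth inhibitor CDKN1C (17 and 1, 70 and 0, 2 and 0) and the troponin gene TNNT3 (15 and 0, 144 and 0, 0 and 1), both neighbours of IGF2 on chromosome 11. The coefficients of IGFBP6, CDKN1C and TNNT3 were 3.82, 5.28 and 5.61. The tetraspanin CD81, of the same region, had a coefficient of 2.07 (edgeR adjusted p = 0.0109). All of these wider genes were picked after values were seen, so their passing is no separate support. TNNT3 is also one of the muscle markers, and the term called 4.46% of all genes higher in number 1. IGFBP5 in CyCoNP PD against input had a log2 fold change of -0.80 (SE 1.09, edgeR adjusted p = 1), and within number 1 a ratio of 0.5 (exact 95% interval 0.391 to 0.64).

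**Figure D4:**
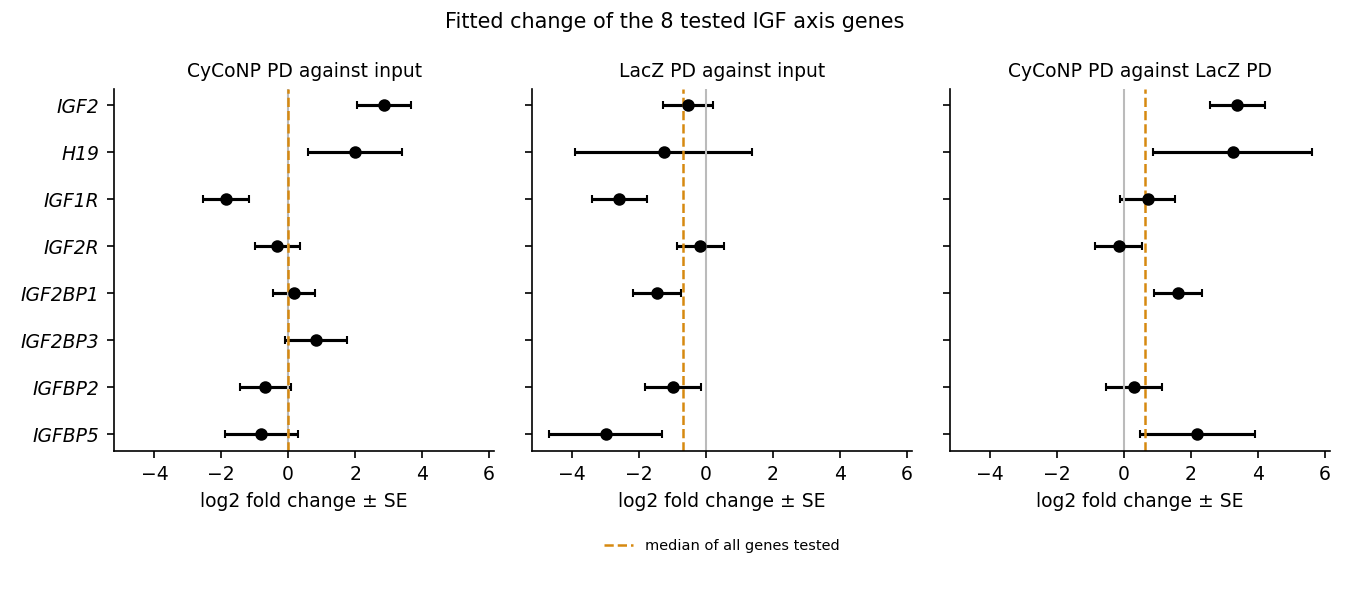
Fitted log2 fold change ± SE (edgeR, n = 2 libraries a group) of the 8 tested IGF axis genes in the 3 comparisons, with the dashed line at the median of all genes tested (-0.01, -0.68 and 0.64). IGF2 is the highest member in CyCoNP PD against input (2.86) and IGF1R the lowest (-1.86). None passed the test in this fit, which has no replicate block. IGF2BP3 is left out of the comparisons with LacZ PD, where it has 0 counts.

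The 8 tested members did not move as a block. In CyCoNP PD against input 4 had a positive and 4 a negative log2 fold change, with a median of -0.07 beside -0.01 over all genes, and 0 passed the edgeR test, with IGF2 upward and IGF1R downward at p under 0.05 before adjustment. DESeq2 called 1 (IGF2). With the replicate block, both edgeR and DESeq2 called IGF2 enriched and IGF1R depleted. Among the 9 members, IGF2 and IGF2BP3 had both CyCoNP PD libraries above both input libraries, which 15.9% of all genes did, and IGF1R both below, which 20.3% did. IGF1R and IGF2BP1 had both LacZ PD libraries below both input libraries in measured CPM, as did 33.7% of genes, and IGF2 and IGF2BP1 had both CyCoNP PD libraries above both LacZ PD libraries, as did 29.3%, but IGF1R and IGF2BP1 had 1 count each in LacZ PD 1, whose 95% Wilson interval (9.35 to 300.1 CPM) reaches above their level in input 2. IGF2BP3 is not counted against LacZ PD, where its 0 counts place it nowhere. In LacZ PD against input all 7 members with a count in LacZ PD were negative, with a median of -1.26 beside -0.68 over all genes, although by library size alone IGF2 and IGF2R were at 0.03 and 0.43. Against LacZ PD, 6 of these 7 were positive with a median of 1.63 beside 0.64. Since the comparisons share libraries, these counts are not independent of each other. The median over all genes moved with the scaling, from -0.68 in LacZ PD against input by TMM to -0.34 by library size alone.

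Across the levels in input, IGF2 stood far above the other members. Per kilobase of the longest transcript it reached 623.8 and 650.1 CPM, against 41.0 and 26.3 for IGFBP2, 28.0 and 11.9 for IGF1R, 23.1 and 16.9 for IGF2R, 18.2 and 26.0 for IGF2BP1, 29.2 and 2.02 for IGFBP5 and 2.61 and 1.48 for IGF2BP3. IGFBP2, IGF1R, IGF2R and IGF2BP1 overlapped with at least one neighbour in this order in their 2 input libraries. Full-length cDNA reads need not scale with transcript length, so the order among these 4 is a description only. For IGFBP2 the longest transcript is annotated as non-coding, so its value per kilobase may not be that of the coding mRNA.

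The remaining pathway was read from 63 further genes in 8 lists, of which 46 were tested. None was called in any of the 3 comparisons by edgeR or DESeq2. Before adjustment, p under 0.05 was reached by 0 upward and 2 downward in CyCoNP PD against input, by 0 and 8 in LacZ PD against input and by 4 and 0 in CyCoNP PD against LacZ PD, beside 387 and 291, 93 and 789, and 595 and 58 of the 12565 genes tested. Their median log2 fold changes were -0.20, -1.01 and 0.97, beside -0.01, -0.68 and 0.64 over all genes. Without input 1, which left an input library with 0 counts of it, TNNT3 was the 1 gene called enriched in CyCoNP PD against input, so this call rested on 1 library, as that of H19 did. The only call under the edgeR block was IRS2, the adaptor that carries the signal from IGF1R and the insulin receptor to PI3-kinase, which was depleted in CyCoNP PD against input (log2 fold change -1.78, edgeR adjusted p = 0.0355).

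IRS2 had 161 and 96 counts from input, 118 and 12 from CyCoNP PD and 2 and 5 from LacZ PD. It fell by 1.62 (SE 0.70) on the log2 scale in the fit without the block, which did not pass (edgeR adjusted p = 0.835), and the value in LacZ PD against input was -2.11 (SE 0.86, adjusted p = 0.666). PIK3R1, the regulatory subunit of PI3-kinase, had 123 and 74, 131 and 40, and 1 and 4 counts, with -0.59 (SE 0.60) in CyCoNP PD against input. Among the other ligands and receptors, IGF1 had 2 and 0 counts from input and 6 and 0 from CyCoNP PD, INS had 2 counts in CyCoNP PD 2, the insulin receptor INSR had 13 and 7, 21 and 3, and 0 and 1, and INSRR had none. Expression of the ligands other than IGF2 was thus near the limit of detection.

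IGFBP4 was the further binding protein with the highest mean level in input, at 10 and 15 counts, with 23 and 35 from CyCoNP PD and 0 and 2 from LacZ PD. Its log2 fold change in CyCoNP PD against input was 1.31 (SE 0.80, edgeR adjusted p = 1). STC2 and STC1, secreted inhibitors of the protease that frees IGF from its binding proteins, had -0.74 (SE 0.71) and -1.39 (SE 0.91). The RNA-binding partners of IGF2BP1, YBX1 and SYNCRIP, had -0.12 (SE 0.60) and -0.20 (SE 0.62), and CTCF, which insulates IGF2 from its enhancers on the maternal copy, had -0.51 (SE 0.67). PLAGL1, an imprinted transcription factor, had no counts.

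Among the neighbours of IGF2 on chromosome 11, 10 of 15 were tested and 0 called. TH, the tyrosine hydroxylase of noradrenergic cells, had 89 and 110 counts from input, 166 and 91 from CyCoNP PD and 5 and 23 from LacZ PD, with a log2 fold change of 0.17 (SE 0.59) in CyCoNP PD against input. NAP1L4, a histone chaperone, had -0.66 (SE 0.67). The genes that overlap IGF2 held few counts. The readthrough INS-IGF2 had 2 and 4 counts, in CyCoNP PD only, and the antisense IGF2-AS had 7 and 5, 12 and 6, and 0 and 1. How reads were divided between overlapping genes is not given in the sources used here, so these values are uncertain.

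The 5 genes whose pattern over the 6 libraries was most like that of IGF2, by Pearson correlation of log2 CPM among 4315 genes with at least 100 counts, were NUDT17 (r = 0.992), LRRC37A4P (0.989), MT-CYB (0.988), PCGF2 (0.988) and CDK11B (0.988). These values describe 6 libraries that differ in depth and fall into 3 groups. MT-CYB, a mitochondrial gene, had 1935 and 1381 counts from input, 13174 and 8474 from CyCoNP PD and 45 and 283 from LacZ PD, a pattern of counts at a similar scale to IGF2. PCGF2 and NUDT17 had between 0 and 9 counts in the input libraries and 0 in LacZ PD, with 459 and 509, and 93 and 62, in CyCoNP PD. Among the members with enough counts, r with IGF2 lay between -0.50 (IGF2R) and 0.63 (IGF2BP1).

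The study examines binding of miR-4492 to CyCoNP. Sites for the seed of this miRNA, bases 2 to 8, were counted on the longest annotated transcript of each member. The mature sequence from RefSeq (GRCh38.p14, chr11:118910765-118910781, plus strand) is shown with the seed in capitals, followed by the 3 IGF2 sites with the complementary bases in capitals. The motif searched on the transcript strand was CCAGCCC.
miR-4492: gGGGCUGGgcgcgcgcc
IGF2 site 1: cgctccccctCCAGCCCtccccccggc
IGF2 site 2: ctggcccgccCCAGCCCgaagacagcc
IGF2 site 3: cacttgccgaCCAGCCCcttgcgtccc
The first and second IGF2 sites lie in the 5′ UTR, in exon 1, at chr11:2139046-2139052 and chr11:2138440-2138446, and the third in the 3′ UTR, in exon 4, at chr11:2129463-2129469, all on the minus strand. Of the tested genes, 43.8% held at least 1 such site and 11.3% at least 3. IGF2BP1 had 5 sites, 4 of them in the 3′ UTR, a number reached by 3.78% of genes, and IGFBP5 had 6, reached by 2.2% of genes. These shares do not correct for transcript length. Per kilobase, 15.7% of genes had at least as many sites as IGF2, 14.6% as IGF2BP1 and 6.02% as IGFBP5. IGF1R had 2, both in the 3′ UTR, IGF2R had 1 in the coding sequence, IGFBP2 had 1 on a transcript annotated as non-coding, and H19, IGF2BP2 and IGF2BP3 had none. By the same search for the seed alone, the longest annotated transcript of LINC02381 had 1 site. The study predicted 3 sites with miRanda, another method, on the isoform it names CyCoNP. It followed them with reporters with and without these sites, of which only the former rose when the miRNA was blocked. A mimic of the miRNA lowered the reporter with the sites in mouse N2a cells. The study also reports enrichment of CyCoNP with AGO2, a protein of the miRNA machinery, and recovery of the miRNA in a pull-down. The search here may concern another transcript and does not bear on those sites. The miRNA itself was not analysed here, and a match of 7 letters is not a measured site.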

How the data were processed

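Counts per gene were analysed for the 6 libraries. Per the methods of the study, the authors basecalled the reads with Guppy, removed reads of low quality or short length, aligned them to GRCh38 with minimap2 (2.24-r1122 per the submitters' processing notes) and counted them per gene by Bambu on the Ensembl 99 annotation, with isoform discovery off. The deposited counts are whole numbers without normalisation, and a deposited table of CPM was not used. Reads were amplified by PCR, and the protocol names no molecular identifiers. Bambu's division of reads between overlapping genes or near-identical copies can move counts of a gene.

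The 12565 genes with 10 counts or more over all libraries went into edgeR 4.0.16, run in R 4.3.3 (TMM, quasi-likelihood F test, all 3 groups in 1 fit, Benjamini-Hochberg over all of them). A gene was called enriched with an adjusted p under 0.05 and a log2 fold change above 1, and depleted with one below -1. The SE was derived from the F statistic. DESeq2 1.42.0, a fit with the replicate number as a block, other scalings and filters and the omission of each library were alternatives. The fits without the block were also run on simulated counts. These held no difference between library numbers, so that run does not show how the fits perform on these data. Ratios between libraries carry exact intervals and shares Wilson intervals. With 2 libraries against 2, an exact permutation test of 1 value cannot go below p = 0.333, so none was run.

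Same-numbered libraries deviated from the group means together across genes (r of 0.257 to 0.449, 3 distinct values, since 2 libraries a group mirror each other), so the numbers count as a pairing here. The labels do not say what a number marks. Replicates differed by more than sampling noise (chi-square per degree of freedom of 4.11 to 18.4). Symbols and positions are from GENCODE v44, on the same build, which held 12528 of the tested genes, and probe sequences are those listed by the study. The 9 members, the wider lists and the tests were chosen with earlier results of these data known. The text names the members, CyCoNP and GAPDH, the 2 genes of each wider list highest in input, genes of the wider lists that were called, and the 5 genes most like IGF2. The muscle markers, IGFBP6, CDKN1C, TNNT3, CD81 and the analysis by library number were chosen after values were seen.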

Additional observations from a re-analysis of the deposited data

How the results depend on the processing

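Depth limits the LacZ PD values most, since LacZ PD 1 has 18870 counts, and with 2 libraries a group each fit rests on few residual degrees of freedom. IGF2 in CyCoNP PD against input ranged from 2.40 to 3.24 when 1 library was left out, where the lone library left in a group is assumed to vary like the other groups, and its adjusted p over 14 alternatives from 2.2e-10 to 1. The cause of the changes below was not tested, unless the setting itself shows it.

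IGF2 passed the threshold in CyCoNP PD against input with DESeq2 (2.81), the replicate block in edgeR (2.82) and the replicate block in DESeq2 (2.75), and in CyCoNP PD against LacZ PD with DESeq2 (3.25), no count filter (3.50, adjusted p = 0.028), and the block in edgeR (3.35) and DESeq2 (3.22), so that the number of members called enriched was 1 in place of 0 in each of these. Leaving out libraries gave 2.92 to 3.79 in CyCoNP PD against LacZ PD, -0.91 to -0.38 in LacZ PD against input, and 0 to 1 members called enriched in CyCoNP PD against input, the 1 being H19 without input 1. Members called depleted in CyCoNP PD against input numbered 1 (IGF1R) with the block in edgeR and in DESeq2. In LacZ PD against input, IGF2 was 0.03 by library size alone, and in single libraries, an alternative chosen after seeing the data, -0.25 in number 2 and 0.28 in number 1, while CyCoNP PD against LacZ PD was 2.05 in number 1. With only the longest transcript searched, the longest stretch was 7 bases for IGF2 with the LacZ probes and 9 bases for H19 with the CyCoNP probes, because fewer transcripts were searched. The replicate block changed no call of the 9 members other than those of IGF2 and IGF1R.

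Other members changed direction in some settings. With 1 library left out, CyCoNP PD against input ranged from -5.69 (without CyCoNP PD 1) to 8.05 (without input 1, called) for H19, -1.40 to 0.28 for IGF2R, -0.14 to 0.56 for IGF2BP1, -2.63 to -1.25 for IGF1R and -4.42 to 1.96 for IGFBP5, with 0.08 for IGFBP5 without CyCoNP PD 2. LacZ PD against input ranged from -6.38 to 4.76 for H19, with 0.71 without LacZ PD 2, from -0.63 to 0.01 for IGF2R and from -9.67 to -0.38 for IGFBP2, which has 0 counts in LacZ PD 1. CyCoNP PD against LacZ PD ranged from -4.49 to 8.38 for H19, -0.05 to 1.46 for IGF1R, -1.19 to 0.45 for IGF2R, with 0.31 without LacZ PD 1, -0.32 to 9.0 for IGFBP2, with -0.31 without LacZ PD 1, and -1.43 to 3.08 for IGFBP5. By library size alone, LacZ PD against input was 0.43 for IGF2R and CyCoNP PD against LacZ PD was -0.05 for IGFBP2, and with the replicate block in DESeq2, LacZ PD against input was 0.80 for H19.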
